A study of Saccharomyces cerevisiae with 4 samples.

Results

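The small subunit of the yeast cytosolic ribosome is built on 18S rRNA and carries a fixed set of proteins, named Rps0 to Rps31. The 56 genes that encode them, RPS0A to RPS31, were taken by systematic name from a table of 7445 features. Of these genes, 48 form 24 pairs of copies, called A and B, that encode the same or nearly the same protein, and 8 are single-copy genes. All 56 were measured well above the filter on low counts, with between 6968 counts (RPS27A) and 355613 counts (RPS9B) in a library.

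RNA was compared between trf4Δ cells, in which TRF4 is replaced by the hygromycin resistance cassette HphMX4, and wild-type cells, all of Saccharomyces cerevisiae strain W303. TRF4 (also called PAP2) encodes a non-canonical poly(A) polymerase, part of the nuclear TRAMP complex, which puts short A tails on RNAs that the exosome then trims or degrades. Both strains grew at 25 °C in rich medium (YPDA) to an OD600 of 0.8, and total RNA depleted of rRNA was sequenced as 2 libraries per genotype, read for 76 bases from both ends. The labels do not say whether the libraries of a genotype came from separate cultures, so p-values measure only the spread between these libraries, which may be technical. RNA was taken from whole cultures, so fewer molecules per cell and another share of the total RNA cannot be told apart.

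Ribosomal protein genes are among the most strongly transcribed genes of a growing yeast cell. The DNA-binding factor Rap1, with Fhl1, its coactivator Ifh1 and Sfp1, drives most of them. The TORC1 and protein kinase A pathways promote their transcription, which falls when nutrients run short and these pathways are less active. Many also carry an intron, which is rare among yeast genes, and some of the proteins act back on the splicing or decay of their own RNA.

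The libraries held 53516242 and 54176921 counts in trf4Δ cells and 56363561 and 57964567 counts in wild-type cells. TRF4 itself (YOL115W, chrXV:101475-103229 in the R64 assembly) was read 21 and 40 times in trf4Δ cells, against 8102 and 8468 times in wild-type cells. All 4 libraries had the profile of mating type a, with summed a-specific transcripts at 997 and 898 CPM (counts scaled to library size, with TMM factors throughout) in trf4Δ cells and 1377 and 1339 CPM in wild-type cells, and alpha-specific transcripts at 42.1 and 48.1 CPM in trf4Δ cells and 28.3 and 31.2 CPM in wild-type cells. Across all 6372 features that passed the filter, the median log2 fold change, trf4Δ over wild type, was 0.01. Among the top 10% of features by mean level, 638 in number, that median was −0.53, and it was −0.43 over the 521 of them that are not ribosomal protein genes.

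Small-subunit ribosomal protein transcripts fell almost as a block in trf4Δ cells, and most were close to 2-fold below the wild-type level. Of the 56 genes, 55 were lower in trf4Δ cells and 0 were higher in the quasi-likelihood test of edgeR (two-sided, Benjamini-Hochberg adjusted p over all features under 0.05). RPS14B alone did not pass. Over all features the same test called 28.9% lower and 31.3% higher. Among the top 10% of features by mean level it called 70.2% lower. Of the 521 of these that are not ribosomal protein genes, it called 64.1% lower. The median log2 fold change of the 56 genes was −1.07, a fold of 2.10 lower, with quartiles of −1.23 and −0.96. Both trf4Δ libraries lay below both wild-type libraries for 55 of the 56 genes, against 40.2% of all features. A fall of at least 2-fold that also passed the test was found for 37 of the 56, against 2.4% of all features. Abundance moved with this result, since 52 of the 56 genes were in the top 10% by mean level, and its part in the result was not tested. Scaling by library size alone moved the median of all features to 0.34 and that of the 56 genes to −0.75. The difference between these medians was −1.08 under both scalings. A change of scaling shifts every feature by nearly the same amount, so that difference could hardly move and tests nothing. With library size alone the test called 81.1% of the features it called as higher, against 52.0% with TMM.

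**Figure D1:**
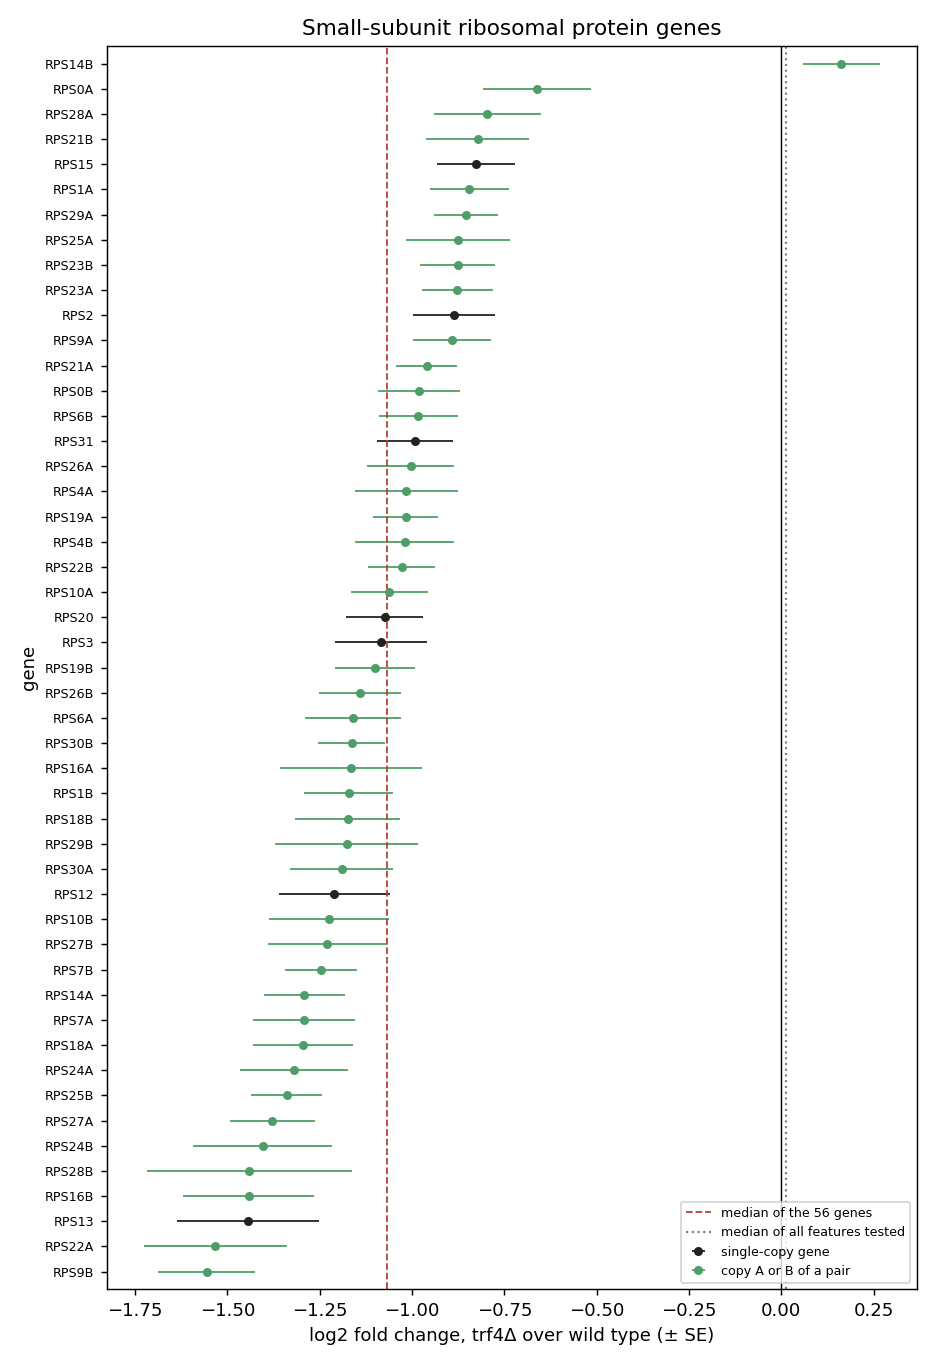
Log2 fold change (trf4Δ over wild type, x axis) of 49 of the 56 small-subunit ribosomal protein genes, from the highest at the top to the lowest. Points are the fitted values from 2 libraries per genotype and bars are ± 1 SE. Single-copy genes are black and copies of a pair are green. The dashed line is the median of the 56 genes (−1.07) and the dotted line the median of all features tested (0.01). RPS14B, at 0.16, is the only gene to the right of 0.

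The same block of transcripts took up less of each trf4Δ library. The 56 genes held 5.07% and 5.56% of all counts in trf4Δ cells, against 8.98% and 9.32% in wild-type cells. The means were 5.31 ± 0.344% in trf4Δ cells and 9.15 ± 0.238% in wild-type cells (SD, n = 2 libraries each; exact two-sided permutation p = 0.333, the smallest that 2 against 2 allows). The groups did not overlap. The genes of the large subunit moved in the same direction, with 71 of 82 lower, 1 higher and a median log2 fold change of −1.03. Over all features, 28.9% were lower and 31.3% higher. The ratio of small-subunit to large-subunit counts was 0.863 and 0.899 in trf4Δ cells, against 0.916 and 0.938 in wild-type cells (0.881 ± 0.0250 and 0.927 ± 0.0158, SD, n = 2 each; exact permutation p = 0.333). The ratios did not overlap between genotypes, and the means differed by −0.0459, trf4Δ minus wild type. Per kb of coding length the difference was −0.0713, and without trf4Δ library 1 it was −0.0283 in counts.

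The 2 trf4Δ libraries were not alike in depth of the fall. Relative to the wild-type mean of each gene, the median log2 level of the 56 genes was −1.13 in trf4Δ library 1 and −1.002 in trf4Δ library 2, against −0.04 and 0.04 in the wild-type libraries. In trf4Δ cells library 1 was below library 2 for 41 of the 56 genes and above it for 15. This lean was not particular to trf4Δ cells. The median log2 ratio of library 1 to library 2 was −0.15 in trf4Δ cells and −0.08 in wild-type cells. The log2 ratio of library 1 to library 2 ran from −0.98 for RPS28B to 0.42 for RPS0A in trf4Δ cells, and from −0.49 to 0.41 in wild-type cells. These gaps between libraries of one genotype were as wide as the gaps between many of the members.

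The 8 single-copy genes were all lower. RPS13 (YDR064W, chrIV:579458-580452), whose protein binds the central domain of 18S rRNA, was at 1283 and 1917 CPM in trf4Δ cells, against 4027 and 4678 CPM in wild-type cells, a log2 fold change of −1.44 (SE 0.19). It was the single-copy gene with the largest fall, and its trf4Δ libraries were also the most unequal of the 8. RPS12, which encodes a protein of the beak, was at 979 and 1320 CPM in trf4Δ cells, against 2705 and 2615 CPM in wild-type cells (log2 fold change −1.21, SE 0.15). RPS3, whose protein lines the mRNA entry channel, was at 1380 and 1673 CPM in trf4Δ cells, against 3326 and 3147 CPM in wild-type cells (−1.08, SE 0.13). RPS20, which encodes a protein of the head, was at 912 and 921 CPM in trf4Δ cells, against 2044 and 1815 CPM in wild-type cells (−1.07, SE 0.11). Each of these had both trf4Δ libraries clearly under both wild-type libraries.

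RPS31, RPS2 and RPS15 fell by slightly less than 2-fold. RPS31 (YLR167W), which is made as a fusion of ubiquitin with the ribosomal protein and so also supplies ubiquitin, was at 2161 and 2173 CPM in trf4Δ cells, against 4321 and 4297 CPM in wild-type cells (log2 fold change −0.99, SE 0.10). Its libraries were nearly equal within each genotype. RPS2, for a protein of the mRNA entry channel, was at 531 and 520 CPM in trf4Δ cells, against 1057 and 887 CPM in wild-type cells (−0.89, SE 0.11). RPS15, for a head protein needed for nuclear export of the subunit, was at 1817 and 1748 CPM in trf4Δ cells, against 3026 and 3297 CPM in wild-type cells (−0.83, SE 0.11), the smallest fall of the 8. The median over the 8 was −1.04, beside −1.08 over the 48 duplicated genes, of which 47 were lower. The values of the single-copy genes, −1.44 to −0.83, lay within the range of the duplicated genes, −1.56 to 0.16.

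Among the duplicated genes, the largest falls were in RPS9B, RPS22A, RPS16B, RPS28B and RPS24B. RPS9B (YBR189W, chrII:604508-605508), the gene with the highest count of the 56, was at 2071 and 2467 CPM in trf4Δ cells, against 6419 and 6928 CPM in wild-type cells, a log2 fold change of −1.56 (SE 0.13) or 2.94-fold. RPS22A, for a protein that contacts the core of 18S rRNA, was at 881 and 1315 CPM in trf4Δ cells, against 2890 and 3464 CPM in wild-type cells (−1.53, SE 0.19). RPS16B, for a protein of the head, was at 322 and 479 CPM in trf4Δ cells, against 1043 and 1132 CPM in wild-type cells (−1.44, SE 0.18). In all 3, trf4Δ library 1 was the lower one.

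RPS28B and RPS24B had the same pattern with a wider spread. RPS28B, whose RNA is bound by the Rps28 protein through its 3′ region and then decapped with the help of Edc3, was at 119 and 234 CPM in trf4Δ cells, against 427 and 530 CPM in wild-type cells (−1.44, SE 0.28). Its trf4Δ libraries were the most unequal of all 56 genes, and its log2 fold change ran from −2.01 to −1.03 over the alternative analyses. RPS24B, for a protein that takes part in processing of the 18S rRNA precursor, was at 351 and 521 CPM in trf4Δ cells, against 1044 and 1263 CPM in wild-type cells (−1.40, SE 0.19). The adjusted p of the 55 lower genes ran from 3.69e-05 (RPS25B) to 0.00561 (RPS0A) by edgeR's quasi-likelihood test.

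The smallest falls were in RPS0A, RPS28A, RPS21B, RPS15 and RPS1A. RPS0A, for a protein on the solvent side of the platform, was at 1828 and 1365 CPM in trf4Δ cells, against 2521 and 2533 CPM in wild-type cells (log2 fold change −0.66, SE 0.15), and it is 1 of the 15 genes with trf4Δ library 1 above library 2. It is the member whose call rests on the scaling, since library size alone gave −0.34 and an edgeR adjusted p of 0.0891. RPS28A was at 237 and 276 CPM in trf4Δ cells, against 508 and 383 CPM in wild-type cells (−0.80, SE 0.15). RPS21B, for a protein that binds beside Rps0, was at 265 and 300 CPM in trf4Δ cells, against 431 and 567 CPM in wild-type cells (−0.82, SE 0.14). RPS1A, for a protein of the platform, was at 1223 and 1074 CPM in trf4Δ cells, against 2062 and 2064 CPM in wild-type cells (−0.84, SE 0.11). Groups did not overlap for any of these genes. RPS19A, for a protein of the head whose human orthologue is mutated in Diamond-Blackfan anaemia and the member nearest to TRF4 on the chromosome with 8624 bases and 5 genes between them, was at 308 and 322 CPM in trf4Δ cells, against 654 and 622 CPM in wild-type cells (−1.02, SE 0.09), close to the median of the block.

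RPS14B (YJL191W, chrX:73787-74611, plus strand) was the one gene of the 56 that did not pass the test. Rps14 protein sits in the platform, and when it is in excess it binds the pre-mRNA of RPS14B near the 5′ splice site and represses its splicing. RPS14A (YCR031C, chrIII:177500-178220, minus strand) is the copy that supplies most of the RNA. The first 120 bases of each gene from the start codon and the last 60 bases of each intron are shown because the copies differ at the 5′ splice site and in the intron. They are from RefSeq, assembly R64, which is the sacCer3 build named for these data, and are written 5′ to 3′ on the strand of the gene. Capitals mark the 6 bases of the 5′ splice site, the TACTAAC branch point and the TAG of the 3′ splice site.
RPS14B, chrX:73787-73906: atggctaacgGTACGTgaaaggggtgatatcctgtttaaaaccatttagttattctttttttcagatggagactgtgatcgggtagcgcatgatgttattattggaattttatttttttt
RPS14B, chrX:74145-74204: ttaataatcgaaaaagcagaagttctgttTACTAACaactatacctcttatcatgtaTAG
RPS14A, chrIII:178101-178220: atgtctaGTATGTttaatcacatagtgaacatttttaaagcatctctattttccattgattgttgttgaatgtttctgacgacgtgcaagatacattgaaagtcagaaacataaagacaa
RPS14A, chrIII:177907-177966: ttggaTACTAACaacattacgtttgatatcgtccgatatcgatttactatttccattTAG
The first exon holds 10 coding bases in RPS14B and 7 in RPS14A, and the introns are 408 and 307 bases long. The coding sequences are 92.1% identical and the proteins differ at 3 residues.

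RPS14B was at 467 and 404 CPM in trf4Δ cells, against 407 and 372 CPM in wild-type cells. The trf4Δ and wild-type values overlapped, and the log2 fold change was 0.16 (SE 0.10, edgeR adjusted p = 0.211). It was 0.053 without trf4Δ library 1, 0.26 without trf4Δ library 2, 0.23 without wild-type library 1 and 0.11 without wild-type library 2, and passed the test in none of these. With scaling by library size alone it was 0.48 (edgeR adjusted p = 0.00734), the only member called higher under any alternative. RPS14A was at 1076 and 1224 CPM in trf4Δ cells, against 2845 and 2783 CPM in wild-type cells, a log2 fold change of −1.29 (SE 0.11). The A copy held 69.7% and 75.2% of the counts of the pair in trf4Δ cells, against 87.5% and 88.2% in wild-type cells. The log2 ratio of A to B differed by −1.45 between genotypes (95% interval −1.94 to −0.97, adjusted p = 0.0135 by limma over 61 A/B pairs of the genome). That ratio is taken within a library, so it does not depend on the scaling between libraries. The limma call rested on both wild-type libraries. It was lost without wild-type library 1 and without wild-type library 2, with differences of −1.50 and −1.40. An alternative test of the pairs on all libraries, edgeR's diffSpliceDGE, also called RPS14 (adjusted p = 0.000172). With the copies summed, RPS14 was at 1542 and 1626 CPM in trf4Δ cells, against 3254 and 3157 CPM in wild-type cells, a log2 fold change of −1.02 (SE 0.10) close to the median over all summed proteins, −1.08. The counts are per gene, so spliced and unspliced RNA were not told apart.

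RPS14B and RPS22A lie next to each other on chromosome X and face each other, with 298 bases between the coding sequences. They were at opposite ends of the block, at 0.16 and −1.53.

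RPS9 was the other pair whose copies changed unequally. Rps9 is an early-binding protein near the mRNA entry side of the subunit, and in yeast its genes are regulated through splicing of their introns. RPS9A (YPL081W, chrXVI:404950-406044) was at 657 and 691 CPM in trf4Δ cells, against 1169 and 1332 CPM in wild-type cells (log2 fold change −0.89, SE 0.11), while RPS9B, described above, fell by 1.56 on the log2 scale. The A copy held 24.1% and 21.9% of the counts of the pair in trf4Δ cells, against 15.4% and 16.1% in wild-type cells. The log2 ratio of A to B differed by 0.67 (95% interval 0.37 to 0.97, limma adjusted p = 0.0254). This limma call was lost without trf4Δ library 1, without wild-type library 1 and without wild-type library 2, with differences of 0.58 to 0.71. On all libraries diffSpliceDGE also called RPS9 (adjusted p = 0.0152). In both pairs the copy with fewer counts had the higher log2 fold change. The same held in the 8 other pairs called, none of them of small-subunit genes. The difference in log2 ratio was larger in size than that of RPS14 in RPL43 (2.23), RPL36 (−1.83) and RPL18 (−1.49).

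The first 60 bases of both RPS9 genes are shown because they share the first coding exon and the 5′ splice site, in capitals, and part ways just after it.
RPS9A, chrXVI:404950-405009: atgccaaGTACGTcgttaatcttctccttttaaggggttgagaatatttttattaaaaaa
RPS9B, chrII:604508-604567: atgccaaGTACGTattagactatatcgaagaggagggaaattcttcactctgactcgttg
Both are on the plus strand. The coding sequences are 91.1% identical and the proteins differ at 4 residues.

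**Figure D2:**
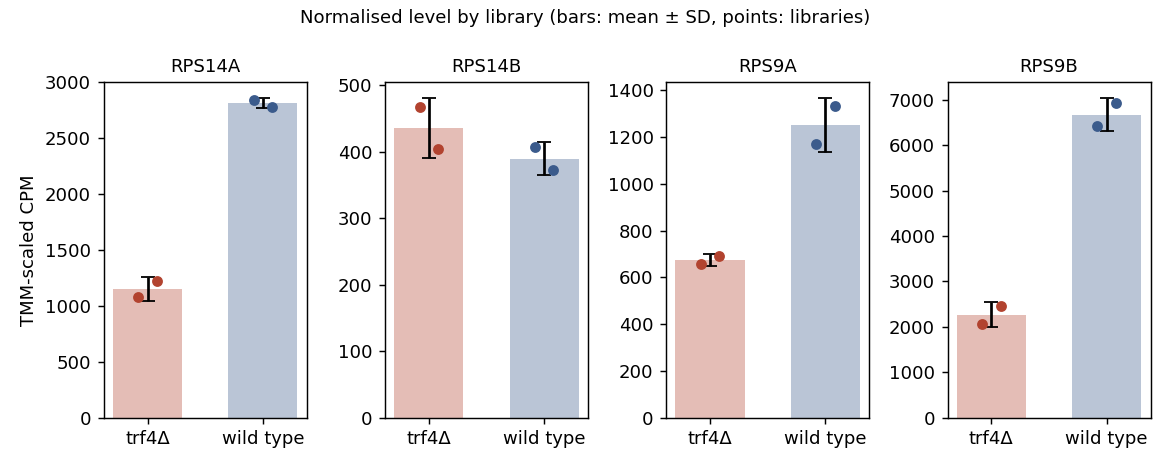
Level of RPS14A, RPS14B, RPS9A and RPS9B in TMM-scaled CPM (y axes, each from 0, with its own scale). Bars are means of 2 libraries, error bars are SD and points are single libraries, with trf4Δ left of wild type in each panel. RPS14B is the one gene whose trf4Δ points (467 and 404) overlap the wild-type points (407 and 372).

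Over all 24 pairs, 2 were called for unequal change (RPS14 and RPS9), beside 16.4% of the 61 A/B pairs tested. At an unadjusted p under 0.05 there were 3, and the third, RPS16, was chosen here after its values were seen. In RPS16 the A copy held 54.1% and 55.4% in trf4Δ cells, against 50.3% and 49.9% in wild-type cells, a difference in log2 ratio of 0.27 (95% interval 0.03 to 0.50, limma adjusted p = 0.139). The A shares of trf4Δ and wild-type libraries did not overlap in 8 of the 24 pairs, beside 52.5% of the 61 A/B pairs. Of the 8, the A share was higher in both trf4Δ libraries for 6 and lower for 2. RPS23 and RPS4 were among the pairs with the smallest differences. The difference was 0.001 for RPS23, a gene pair for a protein of the decoding centre (95% interval −0.28 to 0.29) and 0.002 for RPS4 (−0.22 to 0.23). The intervals leave room for a difference of either sign in each. RPS28, with a difference of 0.73, had an interval of −0.39 to 1.85, which includes 0.

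**Figure D3:**
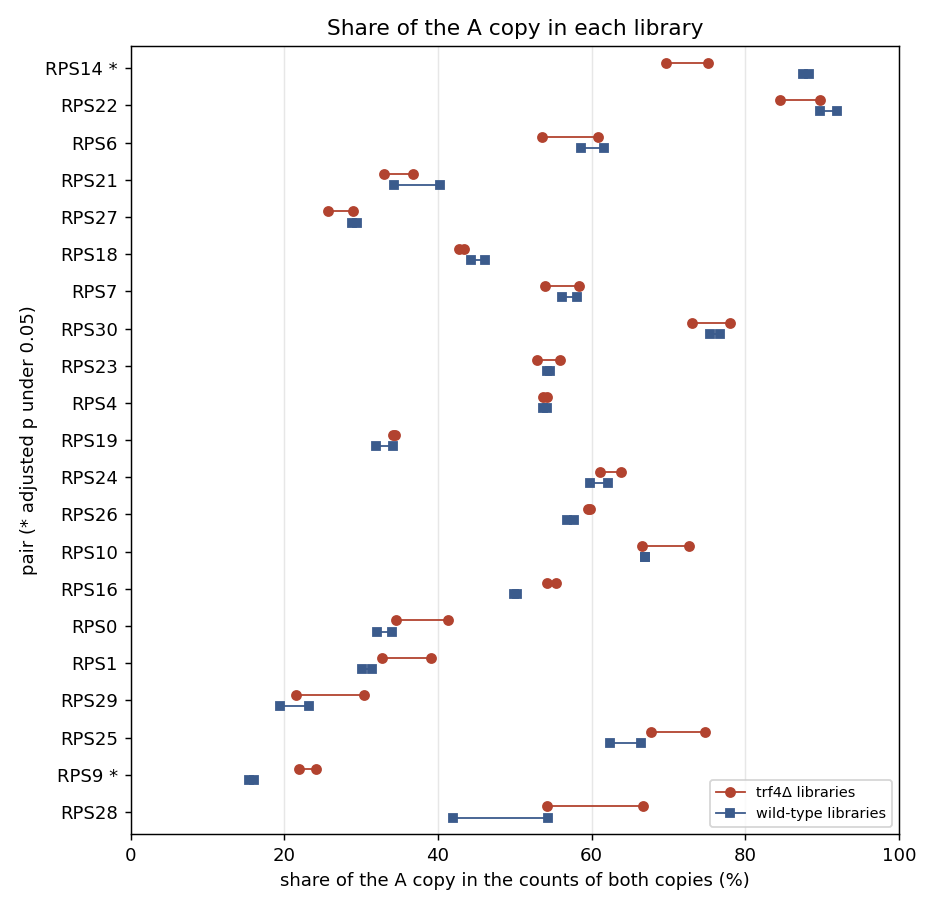
Share of the A copy in the counts of both copies (x axis, percent) for 21 of the 24 pairs of small-subunit genes, ordered by the difference in log2 ratio of A to B between genotypes. Circles are the 2 trf4Δ libraries and squares the 2 wild-type libraries, joined by a line within a genotype. The pairs with an asterisk, RPS14 (69.7% and 75.2% in trf4Δ, 87.5% and 88.2% in wild type) and RPS9 (24.1% and 21.9% in trf4Δ, 15.4% and 16.1% in wild type), passed an adjusted p of 0.05.

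How reads that fit both copies were handled is not given in the sources used here, and this limits the values of single copies more in some pairs than in others. The coding sequences of the copies are from 84.3% identical (RPS27) to 99.2% identical (RPS6), and 9 of the 24 pairs encode the same protein. Of the 76-base windows of the coding sequence, 62.7% are also found in another coding sequence for RPS6, 28.4% for RPS4 and 25.5% for RPS24. The copies of these pairs are uncertain for that reason. The share was small in the pairs called above, at 4.97% for RPS14B, 5.01% for RPS14A and 0.19% for either RPS9 gene. The 38 genes with no repeated window had a median log2 fold change of −1.11 and all were lower, and the 18 with any had a median of −1.02 with 17 lower.

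Summing the copies gave 32 proteins, all lower in trf4Δ cells by edgeR's quasi-likelihood test, beside 28.9% of the features of the table with the copies summed. The adjusted p values ran from 7.95e-05 to 0.000754. The log2 fold changes ran from −1.48 for RPS22 to −0.83 for RPS15, with a median of −1.08. Their SD was 0.17, smaller than the 0.26 over the single genes. The value of a summed pair lies between those of its copies, so summing by itself narrows the spread.

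Levels of the proteins' RNA can be compared only per length, and here the length is that of the coding sequence, without untranslated regions, which inflates the shortest genes. In CPM per kb of coding length, RPS30, whose protein is made as a fusion with a ubiquitin-like peptide in mammals, was highest, at 8021 ± 934 in trf4Δ cells and 18254 ± 1387 in wild-type cells (SD, n = 2 each). RPS9 stood at 4976 ± 508 in trf4Δ cells and 13418 ± 807 in wild-type cells. RPS18, for a protein of the head, was at 4981 ± 749 in trf4Δ cells and 11678 ± 1214 in wild-type cells. In wild-type cells RPS30 stood apart from RPS9, while RPS9 and RPS18 differed by little more than their spread. RPS26, for a protein at the mRNA exit channel, was at 5440 ± 267 in trf4Δ cells and 11365 ± 1211 in wild-type cells. RPS0 was at 5521 ± 448 in trf4Δ cells and 10093 ± 438 in wild-type cells. RPS18, RPS26 and RPS0 were within their spread of each other in trf4Δ cells.

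At the low end, RPS21 was at 1638 ± 75.9 CPM per kb in trf4Δ cells and 3001 ± 381 in wild-type cells. RPS2 was far below all others, at 687 ± 10.6 CPM per kb in trf4Δ cells and 1271 ± 157 in wild-type cells. The highest and lowest of the 32 differed by 11.7-fold in trf4Δ cells and 14.4-fold in wild-type cells, and the coefficient of variation was 47.0% in trf4Δ cells and 49.0% in wild-type cells. The medians were 3007 CPM per kb in trf4Δ cells and 7300 in wild-type cells.

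**Figure D4:**
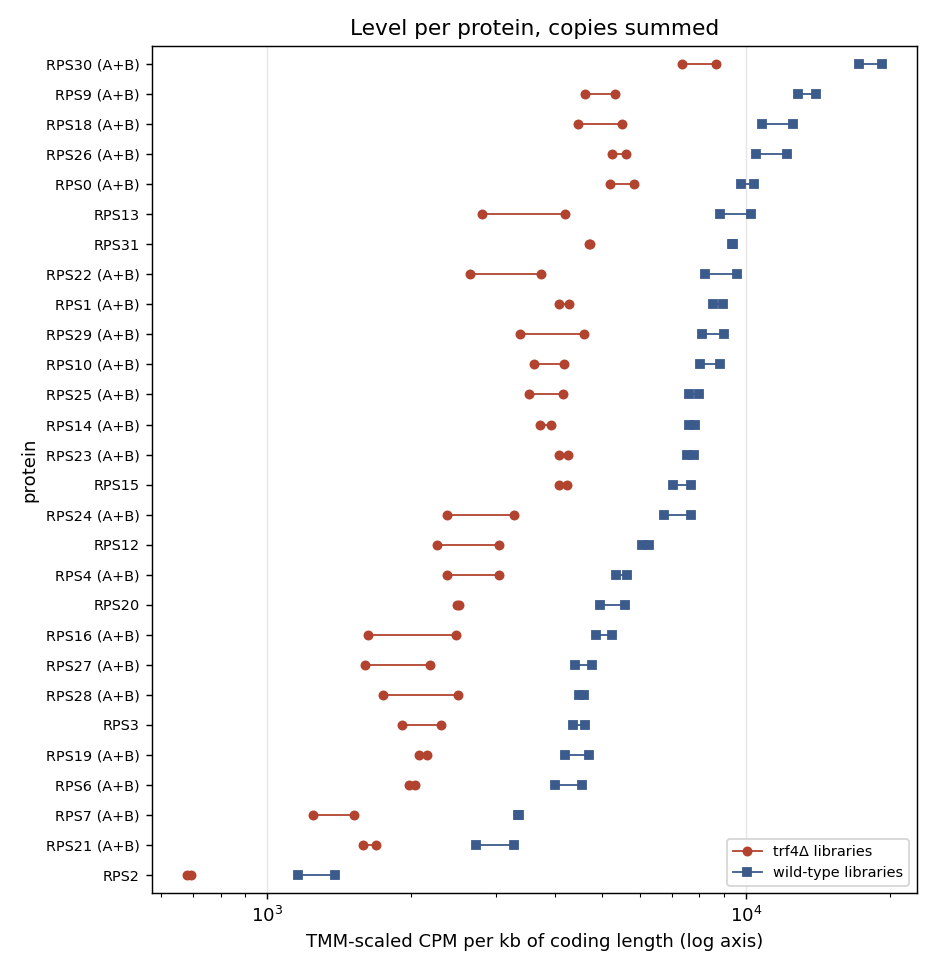
RNA level per protein in CPM per kb of coding length (x axis, log scale), with the A and B copies summed, for 28 of the 32 proteins, ordered by their wild-type level. Circles are the 2 trf4Δ libraries and squares the 2 wild-type libraries, joined by a line within a genotype. The trf4Δ points lie left of the wild-type points in every line, and RPS2 is at the foot of both (687 in trf4Δ and 1271 in wild type, means).

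The order of the proteins shifted in places. RPS22 ranked 16 in trf4Δ cells and 8 in wild-type cells, and RPS13 ranked 15 in trf4Δ cells and 6 in wild-type cells. RPS15 ranked 9 in trf4Δ cells and 16 in wild-type cells, and RPS23 ranked 8 in trf4Δ cells and 15 in wild-type cells. The levels between these ranks are close, and ranks were not tested.

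An intron interrupts the coding sequence of 36 of the 56 genes, with lengths of 256 to 551 bases, and 33 of the 36 introns hold the letters TACTAAC. Genes with and without an intron had similar medians, with a median log2 fold change of −1.08 over the 36 (35 lower) and −1.04 over the 20 without (20 lower). The 5′ splice site reads GTATGT in 24 genes, with a median of −1.17 and 24 lower. It reads GTACGT in 9 genes, with a median of −1.02 and 8 lower, and GTATGA in 3, with a median of −1.003 and 3 lower. RPS14B and both RPS9 genes are among the 9. Without RPS14B the 8 others had a median of −1.06, and they include RPS9B, the gene with the largest fall of all 56.

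RPS22B (YLR367W, chrXII:856442-857317) carries the small nucleolar RNA snR44 in an intron. RPS22B was at 161 and 151 CPM in trf4Δ cells, against 333 and 304 CPM in wild-type cells (log2 fold change −1.03, SE 0.09). The separate feature for snR44 was at 82.4 and 119 CPM in trf4Δ cells, against 150 and 180 CPM in wild-type cells (−0.72, SE 0.17, edgeR adjusted p = 0.00804). Both were lower with no overlap of the genotypes, and how reads over both features were counted is not given in the sources used here.

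Rap1 sites were looked for by the core letters ACCCNNACA, and Fhl1 sites by GACGC, on both strands in the 500 bases before each start codon. The Rap1 core was found before 18 of the 56 genes (32.1%), before 36 of 82 large-subunit genes (43.9%) and before 328 of 6000 genes of the genome (5.47%). GACGC was found before 27 of the 56 (48.2%), before 32 of the 82 large-subunit genes (39.0%) and before 1824 of the 6000 (30.4%). RPS16A and RPS16B are shown because each holds 2 Rap1 cores, in capitals, 1 in each direction. The piece of RPS16A lies 413 to 284 bases before the start codon on the plus strand, and that of RPS16B 440 to 339 bases before it on the minus strand, both from RefSeq R64.
RPS16A, chrXIII:551515-551644: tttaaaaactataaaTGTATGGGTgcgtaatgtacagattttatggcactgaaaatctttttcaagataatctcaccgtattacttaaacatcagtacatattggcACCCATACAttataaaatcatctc
RPS16B, chrIV:308128-308229: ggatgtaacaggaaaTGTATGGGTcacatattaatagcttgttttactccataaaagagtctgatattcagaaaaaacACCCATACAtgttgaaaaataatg
The median log2 fold change was −1.02 over the 18 genes with a core (18 lower) and −1.09 over the 38 without (37 lower).

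Among 14 genes for factors and kinases that act on ribosomal protein genes, 7 were lower, 2 were higher and 5 did not pass. Over all features, 28.9% were lower and 31.3% higher. The median log2 fold change of the 14 genes was −0.19. RAP1 (−0.72), FHL1 (−0.48), HMO1 (−0.48), which encodes an HMG-box protein of these promoters, and ABF1 (−0.65), for a general regulatory factor at a minority of them, were lower. TOD6 (−0.72), for a repressor of ribosome biogenesis genes, was lower while DOT6 (0.54), its paralogue, was higher. CRF1, for a corepressor that binds Fhl1, was at 18.7 and 19.7 CPM in trf4Δ cells, against 9.33 and 8.40 CPM in wild-type cells (log2 fold change 1.11, SE 0.14, edgeR adjusted p = 0.000355). It was the factor with the largest change. IFH1 (−0.28) and SCH9 (−0.27), for a kinase downstream of TORC1, were also called lower, but were at 0.05 each with library size alone, and neither passed without either trf4Δ library or without wild-type library 2 (edgeR adjusted p from 0.0970 to 0.260). The calls of FHL1 (edgeR adjusted p = 0.178), HMO1 (0.174) and ABF1 (0.0592) were also lost with library size alone. SFP1, STB3, TOR1, TOR2 and KOG1 did not pass, and the first 4 of these were called higher with library size alone. The log2 fold change of STB3 also depended on the libraries, at 0.25 with all of them and 0.44 without wild-type library 2.

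Of 13 genes whose products assemble, guard or bind the small subunit, 12 were lower and 0 were higher, beside 28.9% lower and 31.3% higher over all features. FAP7 (−0.17), for an assembly factor that binds Rps14, did not pass. The median log2 fold change of the 13 genes was −0.72, smaller than that of the ribosomal protein genes. ASC1, for a protein of the head that is a stable part of the subunit, was at 500 and 595 CPM in trf4Δ cells, against 1153 and 1128 CPM in wild-type cells (−1.06, SE 0.11). This was close to the median of the RPS genes, −1.07. Among the dedicated chaperones, YAR1 for Rps3 (−0.57), TSR2 for Rps26 (−0.72) and TSR4 for Rps2 (−0.50) were lower, the last with an edgeR adjusted p of 0.0924 under library size alone. The assembly factors ENP1 (−1.02), LTV1 (−0.93) and TSR1 (−0.68) were lower, as were the late maturation genes RIO1 (−0.72), RIO2 (−0.76), NOB1 (−0.49, edgeR adjusted p = 0.184 under library size alone), for the endonuclease that makes the 3′ end of 18S rRNA, and DIM1 (−0.75), for its dimethyltransferase. STM1, for a clamp of resting ribosomes, was lower too (−0.71).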

How the data were processed

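The deposited table held whole-number read counts per feature for 4 libraries. Per the labels, rRNA was removed with Ribo-Zero and libraries were made with ScriptSeq v2. The submitters' processing notes name STAR 2.5.3 and the sacCer3 build. The counting program, its strand setting and its treatment of reads that fit several places are not given in the sources used here.

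Counts were tested with edgeR 4.0.16 in R 4.3.3 (filterByExpr, TMM, quasi-likelihood F test, two-sided, Benjamini-Hochberg over 6372 features, threshold 0.05). The SE of a log2 fold change is its size divided by the square root of F. CPM are TMM-scaled. Copies were also summed within the whole table and refitted. The log2 ratio of A to B with 0.5 added was tested with limma 3.58.1 over the 61 pairs whose symbols differ only in a final A or B. DESeq2 1.42.0 was an alternative, beside other scalings, filters and thresholds and leaving out each library. For the pairs, edgeR's diffSpliceDGE was an alternative test. The code was tested on simulated data. Names, introns and sequences are from RefSeq R64, which matched 6162 of 7445 features by symbol or systematic name.

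Genes were named by rule: the 6 lowest and 6 highest members, the single-copy genes, pairs called and the 3 least different, the 5 highest and 3 lowest proteins per kb, genes with known features of regulation or position, and listed genes that passed. Those at the ends of a range were named after their values were seen. Some members that the rule names are not reported here by name and are not drawn, but are in every count and median. Members and lists were chosen with earlier results of these data known.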

Additional observations from a re-analysis of the deposited data

How the results depend on the processing

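No paired analysis was possible because the labels give no replicate numbers shared between the genotypes. Depth did not limit the members, whose lowest count was 6968, and precision rests on 2 libraries per genotype. Of the members' log2 fold changes under the alternatives, 558 kept their direction and side of the threshold, and only those of RPS0A and RPS14B under library size alone did not. Library size alone gave 1 member called higher, a median of −0.75 over the members and −0.72 over the single-copy genes, and turned the direction of SCH9 (0.051), TOR1 (0.29) and IFH1 (0.046), and of KOG1 (0.20) and FAP7 (0.15), which passed under neither scaling. Of the 270 values of listed genes under the alternatives, 252 were unchanged in call, 5 gained and 13 lost it. Leaving out 1 library, with the lone library assumed to vary like the other genotype, gave single-copy medians of −1.08 to −0.97 (−0.97 without trf4Δ library 1) and 0 to 2 pairs with unequal change (1 without trf4Δ library 1, 0 without either wild-type library). An adjusted p under 0.01 left 0 such pairs by limma. With edgeR's diffSpliceDGE, 2 pairs were called at 0.05, and the adjusted p of RPS14 was 0.000172. The ratio of small-subunit to large-subunit counts differed by −0.0713 per kb of coding length, against −0.0459 in counts. The cause of these shifts was not tested.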
